A study of Mus musculus with 6 samples.

Results

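The hedgehog pathway of the mouse cerebellum was followed through 9 genes chosen by symbol, with earlier results of these data known. They were the ligand gene Shh, the receptor and inhibitor genes Ptch1 and Hhip, the transducer Smo, and Sufu, which inhibits Gli proteins downstream of Smo. The others were the transcription factors Gli1, Gli2 and Gli3, and Atoh1, the proneural factor of granule cell progenitors. All 9 were found among the 24411 gene rows of each library. RNA was sequenced from 6 libraries of developing cerebellum taken at postnatal day 18, 3 of wild-type (WT) genotype and 3 of a genotype in which the remote enhancer of Atoh7 had been knocked out (KO). Atoh7 encodes a proneural factor related to Atoh1, and the series concerns the role of its enhancer in retinal ganglion cells. The protocol calls the replicates independent. Strain, sex and the way the enhancer was deleted are not given in the labels. Values are listed below in the order of replicates 1, 2 and 3. Read counts per gene were scaled to counts per 1000000 reads (CPM) with TMM, a scaling that assumes most genes do not differ. The genotypes were set against each other in edgeR's quasi-likelihood test, adjusted by Benjamini-Hochberg over all tested genes, with a threshold of 0.05.

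Sonic hedgehog is secreted by Purkinje cells and drives the division of granule cell progenitors in the external granular layer, which dissolves as the cerebellum matures. The ligand binds Ptch1 and so releases Smo at the primary cilium; Smo in turn frees the Gli proteins from Sufu. Gli1, Ptch1 and Hhip are themselves induced by the signal, so their transcripts are widely read as its output. After the external layer has gone, Bergmann glia and astrocytes are known to carry pathway components, so bulk tissue mixes these sources.

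Reads assigned to genes numbered 16340132 to 34438262 per library, and WT replicate 3 stood apart. The precursor of ribosomal RNA, Rn45s, took 63.2% of its gene reads (1.28% to 3.04% elsewhere), which left 6015125 reads on other genes. Reads that fell outside genes on the counted strand were 34.3% ± 3.59 of a WT library and 17.3% ± 0.291 of a KO library (SD, n = 3 each), without overlap. WT replicate 1 had 31134 reads of Xist, which coats the inactive X chromosome, and the other libraries had at most 10, so the libraries were not matched in this respect. Atoh7 itself had 72, 56 and 7 reads in WT and 45, 54 and 92 in KO, which overlap, and as the deleted element is remote from the gene this does not check the genotype labels. The tissue field reads retina. The rod gene Gnat1 had at most 6 reads in a library, and Crx, a defining factor of photoreceptors, had 0 in all 6, while the 10 Purkinje cell markers summed to 3793 to 5322 CPM.

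Of the 9 genes, 8 passed the filter on low counts and Atoh1 did not. Smo rose in KO, and the other 7 did not pass the test. Across the transcriptome 16.7% of 15519 tested genes passed (6.43% higher and 10.2% lower in KO), so 1 of 8 (12.5%) is near that background. The groups did not overlap in 4 of the 8: Smo and Gli3 were higher and Gli1 and Hhip lower in every KO library than in any WT library. The same held for 39.4% of all tested genes (18.9% higher and 20.5% lower). At an unadjusted p under 0.05, 4 members (Shh, Smo, Gli1 and Hhip) stood beside 32.5% of all tested genes. The plot of CPM by library shows all 9.

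**Figure D1:**
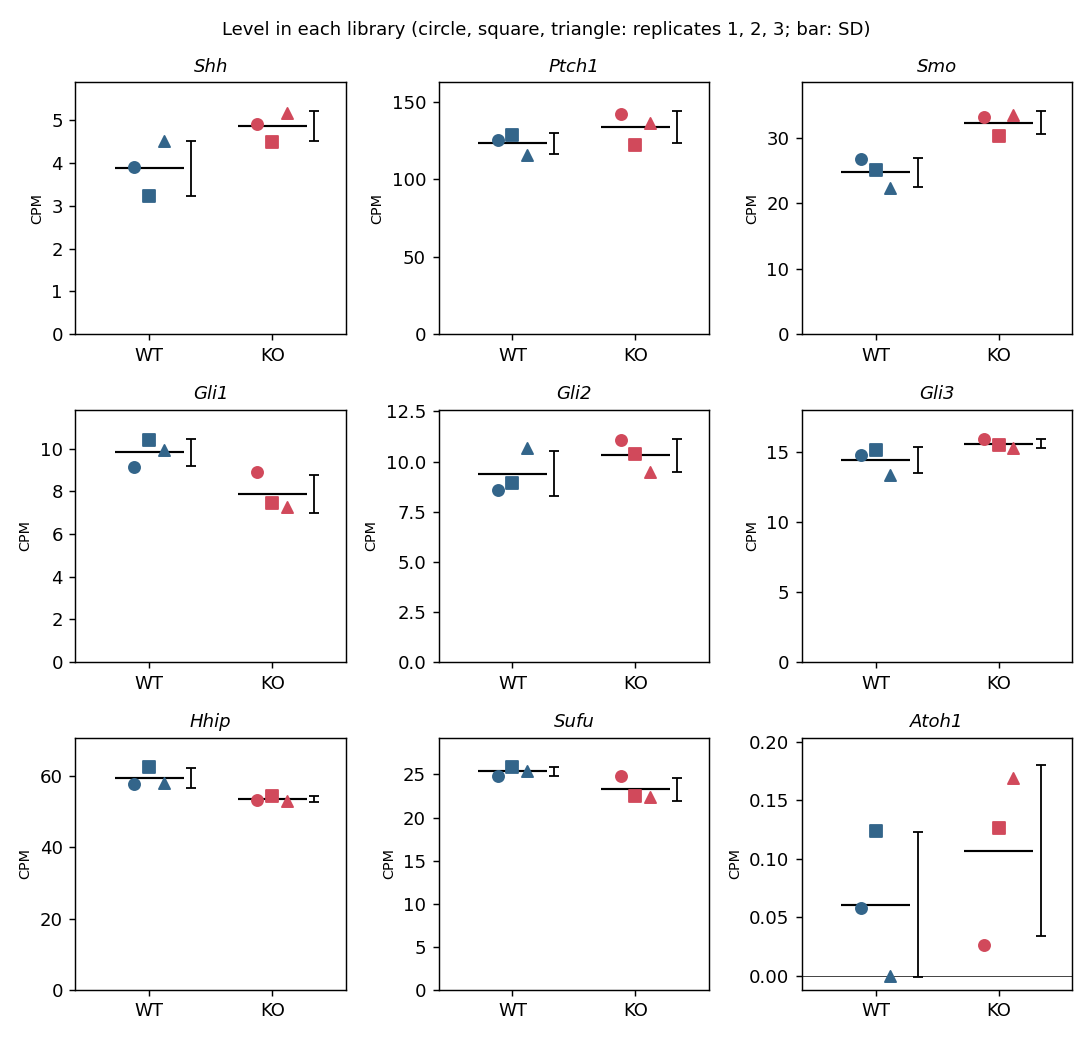
Level of each gene in CPM (vertical axes, each from 0 except that of Atoh1, which shows the SD below 0) in the 3 WT and 3 KO libraries; points are libraries, lines group means and bars the SD. The Smo points separate the groups (at most 26.7 CPM in WT and at least 30.3 in KO), Gli1 and Hhip lie lower in KO without overlap, and Atoh1 stays under 0.2 CPM.

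Shh, the ligand (chromosome 5, 28456815 to 28467256, minus strand, GRCm38), was a low-level transcript. The WT libraries held 134, 104 and 29 reads, or 3.89, 3.22 and 4.49 CPM, and the KO libraries 189, 177 and 214 reads, or 4.90, 4.47 and 5.16 CPM. The groups touched only where WT replicate 3, rich in Rn45s, lay just above KO replicate 2. The WT mean of 3.87 ± 0.639 CPM compares with a KO mean of 4.84 ± 0.349 CPM (SD, n = 3 each). The log2 fold change, 0.38 with an SE of 0.15, did not pass (adjusted p = 0.101, edgeR's quasi-likelihood test). Without WT replicate 3 it passed, at 0.45 (adjusted p = 0.0423), and without any other single library it did not (adjusted p = 0.137 to 0.357).

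Ptch1, the receptor that holds Smo inactive (chromosome 13, 63508328 to 63573598, minus strand), was the most abundant member. It had 126, 128 and 116 CPM in WT and 142, 122 and 136 CPM in KO. KO replicate 2 lay within the WT range, and the log2 fold change of 0.11 (SE 0.07; adjusted p = 0.321) did not pass. The row of A930032L01Rik overlaps it on the same strand. Hhip, a membrane protein that binds and sequesters the ligand (chromosome 8, 79965851 to 80058006, minus strand), had 57.8, 62.7 and 58.0 CPM in WT against 53.3, 54.6 and 53.0 CPM in KO. All KO libraries lay below all WT libraries, yet the change of −0.15 (SE 0.06) did not pass (adjusted p = 0.119). It passed without WT replicate 3 (−0.16, adjusted p = 0.0488). Both genes are textbook targets of the pathway, and their changes were of opposite sign, with neither passing.

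Smo, the seven-pass transducer (chromosome 6, 29735503 to 29761365, plus strand), was the member that rose. Its WT reads numbered 920, 813 and 144, or 26.7, 25.2 and 22.3 CPM, and its KO reads 1277, 1202 and 1390, or 33.1, 30.3 and 33.5 CPM. Every KO library was above every WT library, with KO replicate 2 the lowest of its group. The WT mean of 24.7 ± 2.23 CPM compares with a KO mean of 32.3 ± 1.73 CPM (SD, n = 3 each). The fitted fold was 1.29, a log2 change of 0.37 with an SE of 0.08 and an adjusted p of 0.0154 in edgeR. The change was positive in every leave-one-out fit, from 0.32 to 0.42, but the call was lost without WT replicate 2 (0.37, adjusted p = 0.0553), KO replicate 1 (0.36, 0.0654) or KO replicate 3 (0.35, 0.0788). Without WT replicate 3 it was 0.32 (0.00707). A processed pseudogene, Gm13717, lies inside the gene on the same strand, and how the authors' counting treated reads there is not known.

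Sufu, which binds Gli proteins in the cytoplasm (chromosome 19, 46396896 to 46488804, plus strand), had 24.8, 25.9 and 25.4 CPM in WT and 24.8, 22.5 and 22.4 CPM in KO. KO replicate 1 lay at the WT level and the other KO libraries below it (log2 −0.12, SE 0.08; adjusted p = 0.283). Smo and Sufu thus had changes of opposite sign, of which that of Sufu did not pass.

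To show where the transducer and the textbook targets start, the promoter windows of Smo, Ptch1 and Hhip were taken from RefSeq (build GRCm38.p6; 250 bases before the annotated start and 50 from it on, in the direction of the gene). Windows were present for 7 of the 9 members; Shh and Gli1 had none. They were searched on both strands for GACCACCCA, the consensus bound by Gli proteins, and for the 6 letters CCACCC that it contains, which also form part of boxes bound by other zinc finger factors. None of the 7 windows held the 9 letters, as against 0.253% of 32851 windows of this length. The 6 letters were in 4 of the 7 (Smo, Gli2, Gli3 and Hhip) and in 31.5% of all windows. Capitals mark the 6 letters below, in Smo at chr6:29735247-29735546 (plus strand), in Ptch1 at chr13:63565686-63565985 (minus strand), which has no match, and in Hhip at chr8:80057959-80058258 (minus strand).
Smo: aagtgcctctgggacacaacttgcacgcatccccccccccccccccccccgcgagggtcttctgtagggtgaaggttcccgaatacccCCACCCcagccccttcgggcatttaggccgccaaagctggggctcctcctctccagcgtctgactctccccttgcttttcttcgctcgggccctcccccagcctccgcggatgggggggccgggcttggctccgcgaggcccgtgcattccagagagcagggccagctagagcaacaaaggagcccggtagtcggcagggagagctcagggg
Ptch1: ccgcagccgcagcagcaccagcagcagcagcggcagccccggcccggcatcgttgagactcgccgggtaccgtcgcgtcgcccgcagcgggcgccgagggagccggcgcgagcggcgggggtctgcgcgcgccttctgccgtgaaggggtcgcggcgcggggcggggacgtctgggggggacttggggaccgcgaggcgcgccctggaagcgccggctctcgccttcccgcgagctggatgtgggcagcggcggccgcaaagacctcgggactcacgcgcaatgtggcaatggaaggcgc
Hhip: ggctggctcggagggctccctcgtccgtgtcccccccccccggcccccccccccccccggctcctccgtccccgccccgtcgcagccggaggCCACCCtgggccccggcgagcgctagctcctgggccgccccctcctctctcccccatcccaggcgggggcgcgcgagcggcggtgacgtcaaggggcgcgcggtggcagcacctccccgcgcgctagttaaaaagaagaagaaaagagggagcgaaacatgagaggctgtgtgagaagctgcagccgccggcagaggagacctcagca
The match begins 162 bases before the start in Smo and 158 bases before it in Hhip, and these genes had changes of opposite sign. Ptch1 has other annotated starts that the window does not cover.

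Gli1, the activator that serves as the usual readout of the signal (chromosome 10, 127329882 to 127341974, minus strand), had 315, 336 and 64 reads in WT and 343, 296 and 302 reads in KO. That is 9.15, 10.4 and 9.92 CPM in WT and 8.90, 7.47 and 7.28 CPM in KO, with KO replicate 1 close under WT replicate 1. The WT mean of 9.82 ± 0.630 CPM compares with a KO mean of 7.88 ± 0.883 CPM (SD, n = 3 each). The log2 fold change, −0.31 with an SE of 0.12, did not pass (adjusted p = 0.0883). The adjusted p ran from 0.0724 (without WT replicate 3) to 0.278 (without WT replicate 2) over the leave-one-out fits, with values from −0.41 to −0.26. The gene overlaps Arhgap9 and Gm47200 on the other strand, and the counts used here are strand-specific.

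Gli2, the main activator upstream of Gli1 (chromosome 1, 118834132 to 119053619, minus strand), had 8.60, 8.91 and 10.7 CPM in WT and 11.1, 10.4 and 9.47 CPM in KO. WT replicate 3 lay inside the KO range, and the change of 0.17 (SE 0.11; adjusted p = 0.310) did not pass. Gli3, best known as the repressor of the pathway (chromosome 13, 15463235 to 15730026, plus strand), had 14.8, 15.1 and 13.3 CPM in WT and 15.9, 15.5 and 15.3 CPM in KO. All KO libraries lay above all WT libraries, but by little (0.09, SE 0.08; adjusted p = 0.470). The 3 Gli genes differed in sign, with Gli1 negative and Gli2 and Gli3 positive, and none of the 3 passed.

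Atoh1, which marks dividing granule cell progenitors (chromosome 6, 64729125 to 64731245, plus strand), was at the edge of detection. Its reads numbered 2, 4 and 0 in WT and 1, 5 and 7 in KO, so the groups overlapped. Summed over the group, 6 WT reads correspond to 0.0820 CPM (95% exact Poisson interval 0.0301 to 0.178) and 13 KO reads to 0.109 CPM (0.0578 to 0.186), a ratio of 1.33 (0.470 to 4.25). These intervals cover counting error only. In WT replicate 3 a count of 0 allows a level up to 0.465 CPM, which is above every other library's value, so that library says little. A difference between the genotypes was not detectable at this depth, and with no filter on low counts the gene was fitted at a log2 difference of 0.41 (SE 0.84; adjusted p = 0.788).

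Ratios of reads between members of the same library do not depend on the scaling between libraries, and 6 of them were formed after the values had been seen. Gli1 had 7.28, 8.09 and 8.58 reads per 100 Ptch1 reads in WT and 6.26, 6.11 and 5.34 in KO. The means were 7.98 ± 0.657 and 5.90 ± 0.491 (SD, n = 3 each), and the groups did not overlap. Hhip had 46.0, 48.8 and 50.1 reads per 100 Ptch1 reads in WT and 37.5, 44.6 and 38.9 in KO, again lower in every KO library. Smo had 21.3, 19.6 and 19.3 reads per 100 Ptch1 reads in WT and 23.3, 24.8 and 24.6 in KO, higher in every KO library. Against Smo, Gli1 (34.2, 41.3 and 44.4 reads per 100 in WT and 26.9, 24.6 and 21.7 in KO) and Sufu (103 ± 10.5 in WT and 72.1 ± 4.49 in KO) were lower in every KO library, while Gli2 per 100 Gli3 reads (65.8 ± 12.5 and 66.2 ± 3.90) overlapped. The plot of read ratios shows those against Ptch1. The ratio of Gli1 to Smo had to separate the groups, since Gli1 was lower and Smo higher in every KO library. All the ratios restate the levels given above and are not further evidence. No test was run on these ratios, since they were chosen with the values known, and no ratios of other gene pairs were formed beside them.

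**Figure D2:**
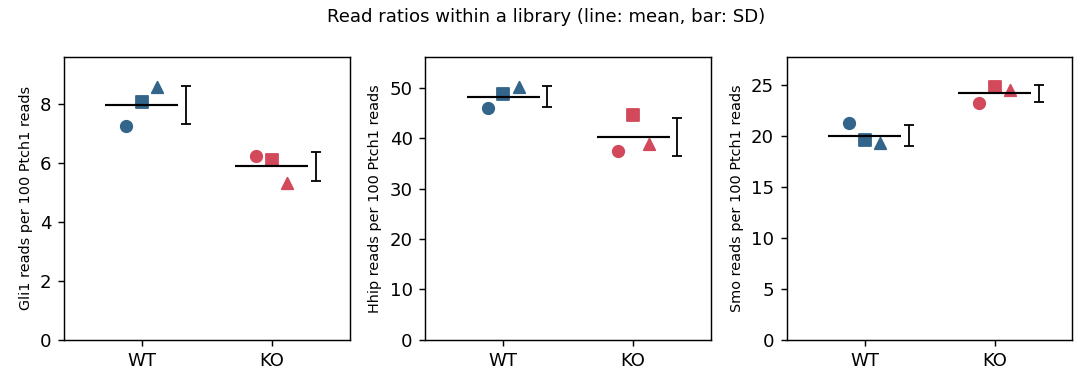
Reads of Gli1, Hhip and Smo per 100 reads of Ptch1 in the same library (vertical axes from 0), for WT and KO; points are libraries (circle, square and triangle for replicates 1, 2 and 3), lines means and bars the SD. Gli1 and Hhip lie lower against Ptch1 in all 3 KO libraries, and Smo higher.

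Levels of different genes were compared only per length, as CPM per kilobase of merged exons in the GENCODE M21 annotation of GRCm38. Ptch1 was the highest at 8.69 ± 0.476 CPM per kb in WT, followed by Hhip (6.56 ± 0.306), Smo (4.40 ± 0.397) and Sufu (3.30 ± 0.0715; SD, n = 3 each). The libraries of each of these genes did not overlap with those of its neighbour in WT. Gli1 (1.97), Gli3 (1.50), Gli2 (1.37) and Shh (1.36) followed in WT. Of these, Gli1 stood above the next 3 in all WT libraries, while Gli3, Gli2 and Shh overlapped. In KO, Shh (1.70), Gli3 (1.62), Gli1 (1.58) and Gli2 (1.50) had overlapping ranges, and Smo (5.75) overlapped with Hhip (5.91). Atoh1 lay at 0.0286 in WT and 0.0504 in KO. Exon length matters here: with the longest coding transcript in place of merged exons, a choice made after seeing the data, Smo (6.54) and Hhip (6.56) had nearly the same mean in WT, Ptch1 reached 16.0 and Sufu 5.61.

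**Figure D3:**
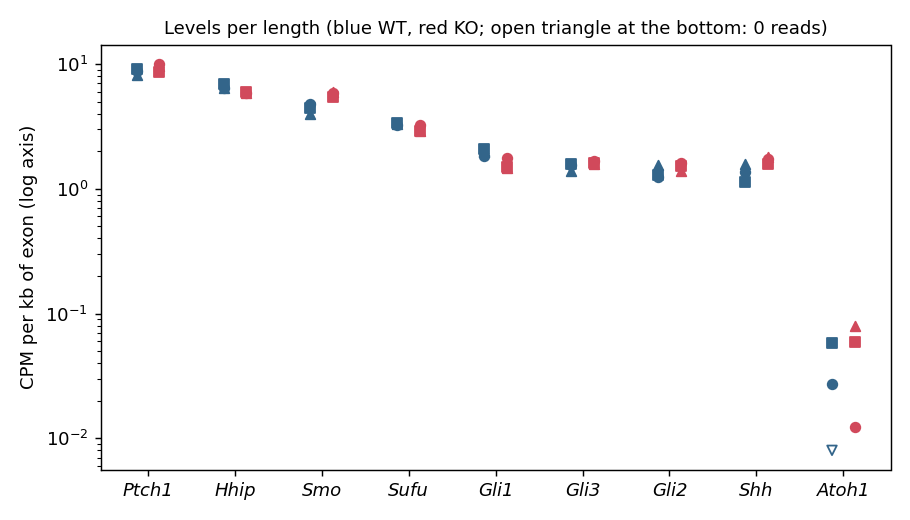
Level of each member in CPM per kilobase of merged exons on a log axis, with libraries as points (blue for WT, red for KO; circle, square and triangle for replicates 1, 2 and 3) and an open triangle for a library with 0 reads. Ptch1 lies highest at 8.69 in WT, the Gli genes and Shh group between 1.36 and 1.97 in WT, and Atoh1 lies far below the rest.

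The likeness of other genes was measured as the root mean square difference of centred log2 CPM profiles over the 6 libraries, among 13948 genes with at least 1 CPM. Closest to Gli1 were Zfp398 (0.0281), Mtcl1 (0.0306) and Pcdhgb2 (0.0354), where the median gene was at 0.243. Closest to Shh were Sult1a1 (0.0342), Cited1 (0.0578) and Slc17a5 (0.0679), with a median of 0.265. With 6 libraries and that many genes, some profiles come close whatever their relation, and Atoh1 was too low to be placed.

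The wider pathway comprised 55 further genes in 4 lists, of which 54 were in the files and 52 were tested. Of the 52, 4 rose, 3 fell and 45 did not pass, a share of 13.5% beside 16.7% of all genes, with a median log2 fold change of −0.04 beside −0.01. Disp2, of the family that releases lipid-modified hedgehog from cells, rose most, from 407 ± 43.3 to 557 ± 33.1 CPM (0.45, SE 0.08; adjusted p = 0.00605), and it kept its call in every leave-one-out fit. Its relative Disp1, which is the known exporter of the ligand, was at −0.10. The other ligands Ihh and Dhh had at most 11 and 5 reads in a library and were not tested. The plot of fold changes by list shows each tested gene.

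**Figure D4:**
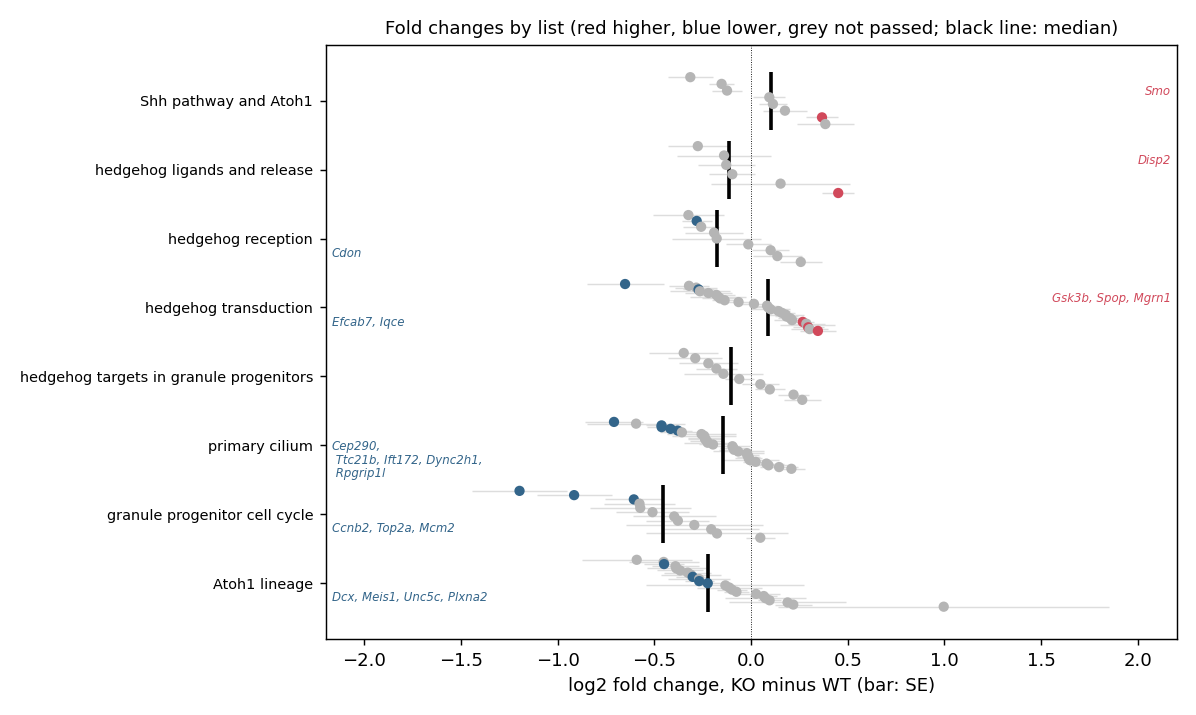
Log2 fold change of KO against WT (horizontal axis) of each tested gene in the 8 lists named at the left; points are genes with bars for the SE, black lines are list medians, and the names at the sides are the genes that passed (red higher, blue lower). Smo, Disp2, Gsk3b, Spop and Mgrn1 are the only genes of these lists that rose, and the cilium, cell cycle and Atoh1 lineage lists hold only genes that fell among those that passed.

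Of 9 tested genes of hedgehog reception, 1 fell, 0 rose and 8 did not pass, or 11.1% beside 16.7% of all genes. The 5 receptors and coreceptors among them held the 1 that fell (median −0.26), and the 4 glypicans, which bind the ligand at the cell surface, held none (median 0.06). Cdon, which presents the ligand to Ptch1, fell from 19.6 ± 0.892 to 16.2 ± 0.290 CPM (−0.28, SE 0.08; adjusted p = 0.0332). Its call was lost without WT replicate 1 or 2 or any 1 KO replicate (adjusted p = 0.0764 to 0.137). The related coreceptor Boc had 49.8 ± 4.35 and 41.9 ± 4.51 CPM (−0.26, adjusted p = 0.0800), and passed without WT replicate 3 (−0.30, 0.0379). Gas1, the third coreceptor, was at 0.10 and did not pass.

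Of 27 genes of signal transduction, 3 rose, 2 fell and 22 did not pass, or 18.5% beside 16.7% of all genes (median 0.09). Gsk3b, a kinase that acts in the processing of Gli proteins, rose from 312 ± 2.86 to 375 ± 11.7 CPM (0.27, SE 0.06, adjusted p = 0.0115 in edgeR). It lost its call without KO replicate 2 (0.25, 0.0576). Spop, an adaptor of Gli degradation (0.30, SE 0.08), and Mgrn1, a ubiquitin ligase that lowers Smo at the cell surface (0.35, SE 0.09), rose as well. Efcab7 (−0.65, SE 0.20) and Iqce (−0.27, SE 0.08), which tether the EVC complex at the cilium, fell. Spop, Efcab7 and Iqce lost their calls without WT replicate 1 or 2 or any 1 KO replicate, with adjusted p from 0.0611 to 0.190, and Mgrn1 without WT replicate 2 or any 1 KO replicate (0.0619 to 0.114). Over the 4 lists, 15 genes passed without WT replicate 3, where 3719 of all 15901 tested genes did. Without WT replicate 2 and KO replicates 1, 2 and 3 in turn, 2, 2, 1 and 2 passed, where 1331, 1289, 1130 and 1041 of all genes did.

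Among targets of the pathway in granule cell progenitors, 0 of 10 passed in edgeR, beside 16.7% of all genes. At an unadjusted p under 0.05 there were 2 of 10, beside 32.5% of all genes. By DESeq2 0 passed, where 2603 of all 15519 tested genes did. Both limma-voom and edgeR without WT replicate 3, which called 2864 and 3719 of all genes, called 1 target, Sfrp1, higher. It is named after its values were seen. Mycn, the factor that links the signal to growth, had 6.89 ± 1.74 CPM in WT and 6.25 ± 0.461 CPM in KO (−0.22). The cyclins Ccnd1 and Ccnd2 were at 0.05 and −0.06, and Ccnd1 took the other sign when WT replicate 3 (−0.017) or KO replicate 1 (−0.014) was left out.

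Genes of the primary cilium, the organelle in which Smo acts, had 5 of 28 lower, 0 higher and 23 not passed, or 17.9%. Of all tested genes 16.7% passed and 10.2% fell. The median was −0.15, and 23 of 28 values were below 0, beside 7883 of all 15519. Dync2h1, the motor of retrograde transport in the cilium, fell from 84.6 ± 2.07 to 63.5 ± 1.05 CPM (−0.42, SE 0.06; adjusted p = 0.00139). Ift172 (−0.46) and Ttc21b (−0.46), of the transport trains, and Rpgrip1l (−0.38) and Cep290 (−0.71), of the transition zone, fell as well, with adjusted p from 0.00365 to 0.0130. Cep290 lost its call without KO replicate 2 (−0.69, 0.0609) or KO replicate 3 (−0.71, 0.0569), and was at −0.52 without WT replicate 3. Each of the other 4 kept its call in every leave-one-out fit.

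The lineage that Atoh1 founds was described by 23 genes, of which 4 fell, 0 rose and 19 did not pass, or 17.4% beside 16.7% of all genes, of which 10.2% fell (median −0.22). Dcx, a microtubule protein of migrating neurons, fell from 75.1 ± 11.7 to 54.3 ± 3.46 CPM (−0.45, SE 0.10; adjusted p = 0.0161), and the netrin receptor Unc5c (−0.27), the homeobox gene Meis1 (−0.30) and the semaphorin receptor Plxna2 (−0.22) fell too. These calls were lost on leaving out replicate 2 of WT or replicate 2 or 3 of KO (adjusted p = 0.0503 to 0.162), and those of Meis1 and Plxna2 also without KO replicate 1 (0.0859 and 0.0889). Without WT replicate 1, 12 of the 23 passed, beside 2360 of all 15703 tested genes. Of 12 cell cycle genes, 3 fell (Top2a, Ccnb2 and Mcm2), 0 rose and 9 did not pass, a share lower of 25.0% beside 10.2% of all genes. Of the 12, 4 passed without WT replicate 1 or 3, where 2360 and 3719 of all genes did. Without WT replicate 2, 2 passed (1331 of all genes), and without KO replicates 2 and 3, 1 each (1130 and 1041). Top2a was at −0.85 (0.0585) without KO replicate 2 and −0.97 (0.0504) without KO replicate 3, and Mcm2 at −0.53 (0.0988), −0.52 (0.0838) and −0.62 (0.0750) on leaving out replicate 2 of WT, replicate 2 of KO and replicate 3 of KO. Ccnb2, at 1.54 ± 0.414 CPM in WT against 0.610 ± 0.0106 CPM in KO (−1.20, SE 0.24), kept its call in every leave-one-out fit. These genes mark any dividing cell and not granule cell progenitors alone.

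In bulk tissue, fewer cells of a type and less RNA per cell cannot be told apart, and sums of cell type markers are given here beside the values above; of all tested genes 6.43% rose and 10.2% fell. The 10 markers of Bergmann glia and astrocytes, cells known to hold Smo and Gli transcripts, summed to 5613 to 5770 CPM in WT and 6142 to 6758 CPM in KO. Of these, 1 rose (Slc1a2, the glutamate transporter, at 0.38), 1 fell (Fabp7, at −0.37) and 8 did not pass, and none was at 0 reads. Without Slc1a2, a choice made after seeing the data, the sums were 2712 to 3030 CPM in WT and 2691 to 3159 CPM in KO and overlapped. Purkinje cell markers, which stand for the source of Shh, summed to 3793 to 4720 CPM in WT and 4288 to 5322 CPM in KO, which overlap, with 3 of 10 higher and 0 lower, none at 0. Markers of granule neurons summed to 1747 to 2258 CPM in WT and 1448 to 1906 CPM in KO, which overlap too, with 3 of 10 lower and none at 0. Meningeal fibroblast markers summed to 284 to 424 CPM in WT and 202 to 215 CPM in KO, and markers of vessels to 241 to 266 and 173 to 179 CPM, each with 6 of 8 lower and none at 0. Without overlap as well, markers of the oligodendrocyte lineage summed to 20888 to 23775 CPM in WT and 26548 to 28606 CPM in KO (0 of 8 passed). Those of interneurons summed to 1060 to 1094 and 1164 to 1242 CPM (3 of 8 higher, 1 lower), and those of microglia to 179 to 204 and 207 to 218 CPM (1 of 8 higher). Choroid plexus (2030 to 2339 and 1867 to 2278 CPM, 0 of 8 passed) and brainstem markers (57.4 to 63.0 and 62.2 to 71.0 CPM, 2 of 8 higher) overlapped. Reads outside genes, 34.3% of WT and 17.3% of KO libraries, did not overlap between the genotypes either. The part of these measures in the changes of Smo and of the pathway, cilium and lineage genes was not tested.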

How the data were processed

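RNA of 3 WT and 3 KO cerebella at postnatal day 18 was analysed. Each library has 1 deposited file of raw counts by gene symbol, made by the authors with Trimmomatic and STAR on mm10, per the submitters' processing notes; tool versions and annotation: not given in the sources used here. Column 4, the heavier strand (55.4 times column 3 over all libraries), was used. The 4 summary lines were left out. Genes with low counts were removed by filterByExpr (8892 removed, 15519 tested), and edgeR 4.0.16 (R 4.3.3) fitted TMM-scaled counts without a covariate; SEs are the absolute log2 fold change over the square root of F. DESeq2 1.42.0 and limma 3.58.1 served as alternatives, and the fit was tested on simulated data. GENCODE M21 (GRCm38) gave positions and exon lengths. Log2 CPM used a prior count of 2. The members and lists were chosen with earlier results of these data known. Of each list, members past the threshold were named (the 6 with the smallest p where more passed), with Boc, Cdon, Gas1, Mycn, Ccnd1, Ccnd2 and any listed gene at 0 reads in all libraries; a gene named by the rule is not reported here, and any other gene was picked with its values in view. Mosmo of the lists was matched to no row.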

Additional observations from a re-analysis of the deposited data

Results flagged for a closer look

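Reads on the strand opposite to Shh, in the strand column that the comparisons do not use, were higher in every KO library than in any WT library, and this was seen only after looking at the values. In the order of replicates 1, 2 and 3 there were 2, 2 and 1 such reads in WT and 9, 9 and 13 in KO, or 5 in WT against 31 in KO after summing. The levels were 0.0581, 0.0619 and 0.155 CPM in WT and 0.233, 0.227 and 0.313 CPM in KO, and the summed reads gave a ratio of 3.79. These reads were picked because the groups separate, so the ratio is a description and not a test. On the counted strand, 18.9% of all tested genes were higher in every KO library than in any WT library. The share on the opposite strand was not counted. The annotation places the genes 9530036O11Rik and Gm26894 on that strand, with spans that overlap Shh. Whether their exons lie over Shh was not examined. 9530036O11Rik, counted on its own strand, had 30, 21 and 9 reads in WT and 30, 38 and 44 in KO, a ratio of 1.14 (0.827 to 1.59), so it overlapped between the groups.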

How the results depend on the processing

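Of 120 leave-out and method alternatives for the 8 tested members, none changed sign, 111 kept their side of the threshold, 4 lost it and 5 gained it. Smo lost its call with a replicate block (0.38, adjusted p = 0.0596). The replicate numbers are not stated to pair the libraries. Same-numbered libraries had correlations of −0.183, −0.140 and −0.0997. These were taken on deviations from group means of 3 libraries and cannot show whether animals were paired. The block left 1073 genes called in place of 2585 and 0 members in place of 1. It left 1 other pathway gene in place of 7 and 0 Atoh1 lineage genes in place of 4. Sample weights in limma-voom gave 4092 genes, 4 members (Shh, Gli1 and Hhip besides Smo), 16 other pathway genes and 9 cilium genes in place of 5. Counts without regard to strand gave 13 other pathway genes, where 3153 of all 15990 tested genes passed. DESeq2 gave 7 lineage genes, where 2603 of all 15519 did. Leaving out 1 library gave 1041 to 3719 genes, 0 to 3 members, 1 to 15 other pathway genes, 0 to 12 lineage genes and 1 to 4 cell cycle genes (3 with all libraries). Ccnd1 ranged from −0.017 to 0.10 without 1 library, and Ccnd1 was at −0.0080 with sample weights. For each of these the cause was not tested. Without Rn45s the levels of all members were higher in both groups (Smo 29.7 and 38.9 CPM). WT replicate 3, with 6015125 reads besides Rn45s, limits the precision for Shh, Gli1, Gli2 and Atoh1, of which it held at most 69 reads each.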

Other observations

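Lhx9, a LIM homeobox gene on the list of the Atoh1 lineage, differed widely among the WT libraries. Its reads, in the order of replicates 1, 2 and 3, numbered 386, 30 and 17 in WT and 409, 514 and 395 in KO. The WT levels were 11.2, 0.928 and 2.63 CPM. WT replicate 1 lay within the KO range and the other WT libraries far below it. Its fitted fold of 1.99 (SE 0.86 on the log2 scale) did not pass (adjusted p = 0.490, edgeR's quasi-likelihood test). Lhx9 was singled out after its values were seen.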
